A study of Mus musculus with 36 samples.

Results

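The genes examined encode the subunits of the ionotropic glutamate receptors (AMPA, NMDA, kainate and delta), the metabotropic glutamate receptors and the GABA-A receptors. They were taken by symbol from the deposited count table: all Gria, Grin, Grik, Grid and Grm genes and the alpha, beta, gamma, delta and epsilon GABA-A genes, kept where the mean over 36 mouse brain libraries was at least 1 CPM (counts of a gene scaled to the library total). Of 56184 rows of the table, 42 matched by symbol and 37 passed, 24 for glutamate receptors (4 AMPA, 6 NMDA, 5 kainate, 2 delta, 7 metabotropic) and 13 for GABA-A receptors. Gabrb2, at a mean of 1.71 CPM, lay just inside the limit, and Grin1os (0.608 CPM), Gabre (0.257 CPM), Grin3b (0.200 CPM) and Grm6 (0.017 CPM) were among those below it. All 37 passed the filter on low counts, among 16255 genes tested.

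Fast excitation in the brain runs through AMPA receptors, tetramers of Gria1 to Gria4 products. NMDA receptors pair the obligatory Grin1 subunit with Grin2 or Grin3 subunits that set their kinetics and developmental timing. Metabotropic receptors signal through G proteins, and GABA-A receptors are chloride channels, most often assembled from alpha, beta and gamma subunits, that carry fast inhibition. Which subunits a neuron makes differs strongly between brain regions. Gabra6 and Grin2c are textbook markers of cerebellar granule cells and Grm4 is abundant there, while Grin2b and Gabra5 mark the forebrain.

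The study measured polyadenylated RNA in pieces of 10 mg of brain taken on postnatal day 19 from mice lacking Gpt2 (KO) and wild-type mice (WT). Gpt2 encodes the mitochondrial alanine aminotransferase, which reversibly turns alanine and α-ketoglutarate into pyruvate and glutamate. The groups were KO given dm-αKG, an ester of α-ketoglutarate that enters cells, at 600 mg per kg intraperitoneally (KO-aKG, n = 8), KO given vehicle (KO-Veh, n = 10), WT given dm-αKG (WT-aKG, n = 8) and WT given vehicle (WT-Veh, n = 10). The sources used here do not give the making of the Gpt2 allele, the sex of the mice or the brain region of each piece. Nor do the labels say whether each library came from a separate mouse, and p-values therefore reflect only variation among these libraries, which may be technical.

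Libraries held 5.77 to 13.3 M counts (median 11.4 M). Gpt2 itself had 1.12, 2.51 and 3.17 CPM in KO-aKG (lowest, median and highest library), 0.879, 1.78 and 3.30 CPM in KO-Veh, 26.2, 31.8 and 38.0 CPM in WT-aKG and 22.0, 29.7 and 39.0 CPM in WT-Veh, with no overlap between the genotypes. Neuronal markers were found in all libraries, 7 of 7 genes, with summed levels of 1430 to 2570 CPM. Markers of brain regions varied widely. The summed level of 12 cerebellar markers, none of them a receptor gene, had a lowest, median and highest value of 57.7, 138 and 1310 CPM in KO-aKG, 60.7, 119 and 4090 CPM in KO-Veh, 65.3, 431 and 3370 CPM in WT-aKG, and 139, 202 and 3640 CPM in WT-Veh, and no marker was at 0 throughout. In 9 libraries the cerebellum score, the mean log2 CPM of these markers, exceeded the average library by more than 1 log2 unit. These cerebellum-rich libraries were 1 KO-aKG, 1 KO-Veh, 4 WT-aKG and 3 WT-Veh, thus 2 of 18 KO and 7 of 18 WT libraries, and genotype fold changes of named genes below are given with and without them. In tissue of this kind fewer cells of a type and less RNA per cell cannot be told apart.

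Receptor subunits followed the cerebellar content of the libraries more than the labelled groups. Gabra6, Gria4, Grin2c and Grm4 were among 5 subunits that were higher in every cerebellum-rich library than in every other library, and Gabrg3 was lower in every one. Of all genes tested, 1.49% were above and 0.265% below without overlap in this way, against 5 and 1 of the 37 subunits. Median levels differed by more than 1 log2 unit upwards for 11 subunits and downwards for 8. The share of all genes with such a difference was not computed.

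**Figure D1:**
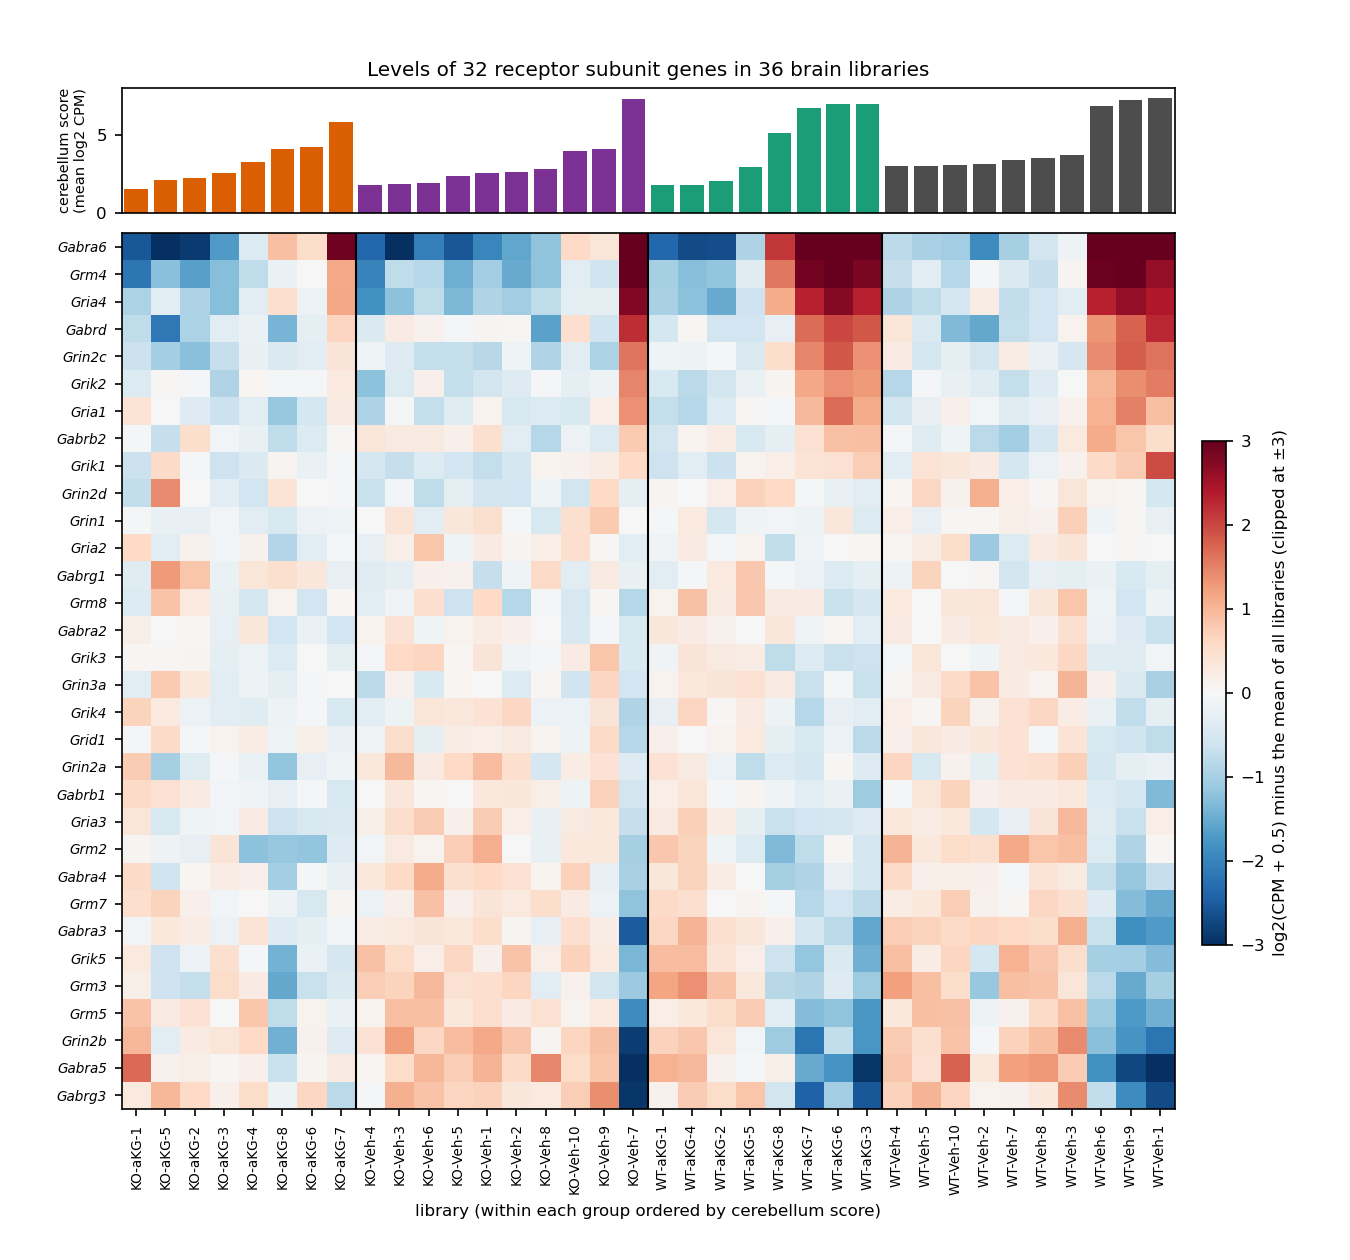
Levels of 32 of the subunit genes (rows, ordered by the difference between cerebellum-rich and other libraries) in 36 libraries (columns), as log2(CPM + 0.5) minus the mean of all libraries, clipped at ±3. Bars on top give the cerebellum score (mean log2 CPM of 12 markers). Gabra6 and Grm4 are high, and Gabrg3 low, in the library with the highest score of each group. Gabra5 is low in that library in KO-Veh, WT-aKG and WT-Veh. In KO-aKG it is not, with 24.5 CPM in KO-aKG-7 against a group median of 22.2 CPM.

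The promoters of Gabra6, Grin2c and Gria4 are shown, since these genes moved together. Each runs from 250 bases before to 50 bases after the RefSeq start (GRCm38.p6, minus strand, chr11:42321023-42321322 for Gabra6, chr11:115267194-115267493 for Grin2c and chr9:4796185-4796484 for Gria4). Capitals mark the only half-site of nuclear factor I found (TTGGC, or GCCAA on the other strand), a family known in the mouse to act on Gabra6 in cerebellar granule neurons.
Gabra6: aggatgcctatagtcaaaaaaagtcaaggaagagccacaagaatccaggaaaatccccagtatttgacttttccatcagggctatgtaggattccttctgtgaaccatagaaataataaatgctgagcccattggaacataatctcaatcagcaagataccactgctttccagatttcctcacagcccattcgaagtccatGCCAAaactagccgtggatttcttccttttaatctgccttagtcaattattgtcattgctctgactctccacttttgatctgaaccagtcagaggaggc
Grin2c: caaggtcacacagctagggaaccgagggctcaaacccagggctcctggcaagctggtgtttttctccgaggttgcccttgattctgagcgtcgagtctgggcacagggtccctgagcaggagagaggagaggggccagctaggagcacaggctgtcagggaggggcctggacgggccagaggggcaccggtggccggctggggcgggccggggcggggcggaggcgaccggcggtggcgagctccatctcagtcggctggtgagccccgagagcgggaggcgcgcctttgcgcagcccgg
Gria4: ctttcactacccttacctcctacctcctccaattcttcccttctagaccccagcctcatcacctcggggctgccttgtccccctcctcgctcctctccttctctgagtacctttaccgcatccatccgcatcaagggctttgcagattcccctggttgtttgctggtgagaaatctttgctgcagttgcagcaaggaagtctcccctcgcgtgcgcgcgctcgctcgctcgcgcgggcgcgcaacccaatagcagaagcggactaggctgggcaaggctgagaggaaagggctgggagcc
The half-site occurred once in the Gabra6 promoter and not in those of Grin2c and Gria4. It occurred in 13 of the 29 promoters listed for 22 of the subunits (44.8%), against 46.7% of all 32851 RefSeq promoters of this length, and the full palindrome (TTGGC, 5 bases of any kind, GCCAA) in 0 of the subunits' promoters and in 12 of all (0.0365%). GC content was 42.0% for Gabra6, 70.0% for Grin2c and 59.7% for Gria4.

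Gabra6, the α6 subunit, had 60.1, 339 and 501 CPM (lowest, median, highest) in the 9 cerebellum-rich libraries, against 0.756, 4.21 and 25.5 CPM in the other 27, a difference of medians of 6.33 on the log2 scale. Grm4, a presynaptic metabotropic receptor, had 55.7, 189 and 299 CPM in cerebellum-rich libraries, against 5.16, 13.7 and 26.7 CPM in the others. Gria4, an AMPA subunit, had 46.8, 110 and 149 CPM, against 5.71, 12.5 and 30.4 CPM. In all 3 the lowest cerebellum-rich library was above the highest other one. Grin2c, the NMDA subunit of mature granule cells, had 48.1, 101 and 134 CPM in cerebellum-rich libraries, against 14.9, 26.8 and 43.0 CPM in the others, again without overlap. Gabrd, the subunit of extrasynaptic receptors, had 24.4, 99.6 and 142 CPM in cerebellum-rich libraries, against 6.20, 21.3 and 41.6 CPM in the others, with overlap.

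Subunits of the forebrain ran the other way. Gabrg3 had 0.619, 1.77 and 5.20 CPM in cerebellum-rich libraries, against 7.06, 12.4 and 21.8 CPM in the others. Grin2b, the NMDA subunit that predominates early in forebrain development, had 5.31, 12 and 31.8 CPM, against 14.9, 65.2 and 112 CPM. Gabra5, a GABA-A subunit abundant in the hippocampus, had 1.04, 5.36 and 24.5 CPM, against 12.5, 30.0 and 70.0 CPM. Only Gabrg3 of these was separated without overlap. Grm5, the postsynaptic receptor that couples to phospholipase C, differed by -1.65 and Grik5, a high-affinity kainate subunit, by -1.45 in log2 median. Grin1, the subunit common to NMDA receptors, had 45.7, 55.1 and 76.5 CPM in cerebellum-rich libraries, against 41.8, 59.1 and 105 CPM in the others, and Gria2, the AMPA subunit that limits calcium entry, had 140, 229 and 242 CPM, against 108, 249 and 411 CPM. Both of these differed little in median, by -0.10 and -0.12 log2 units.

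**Figure D2:**
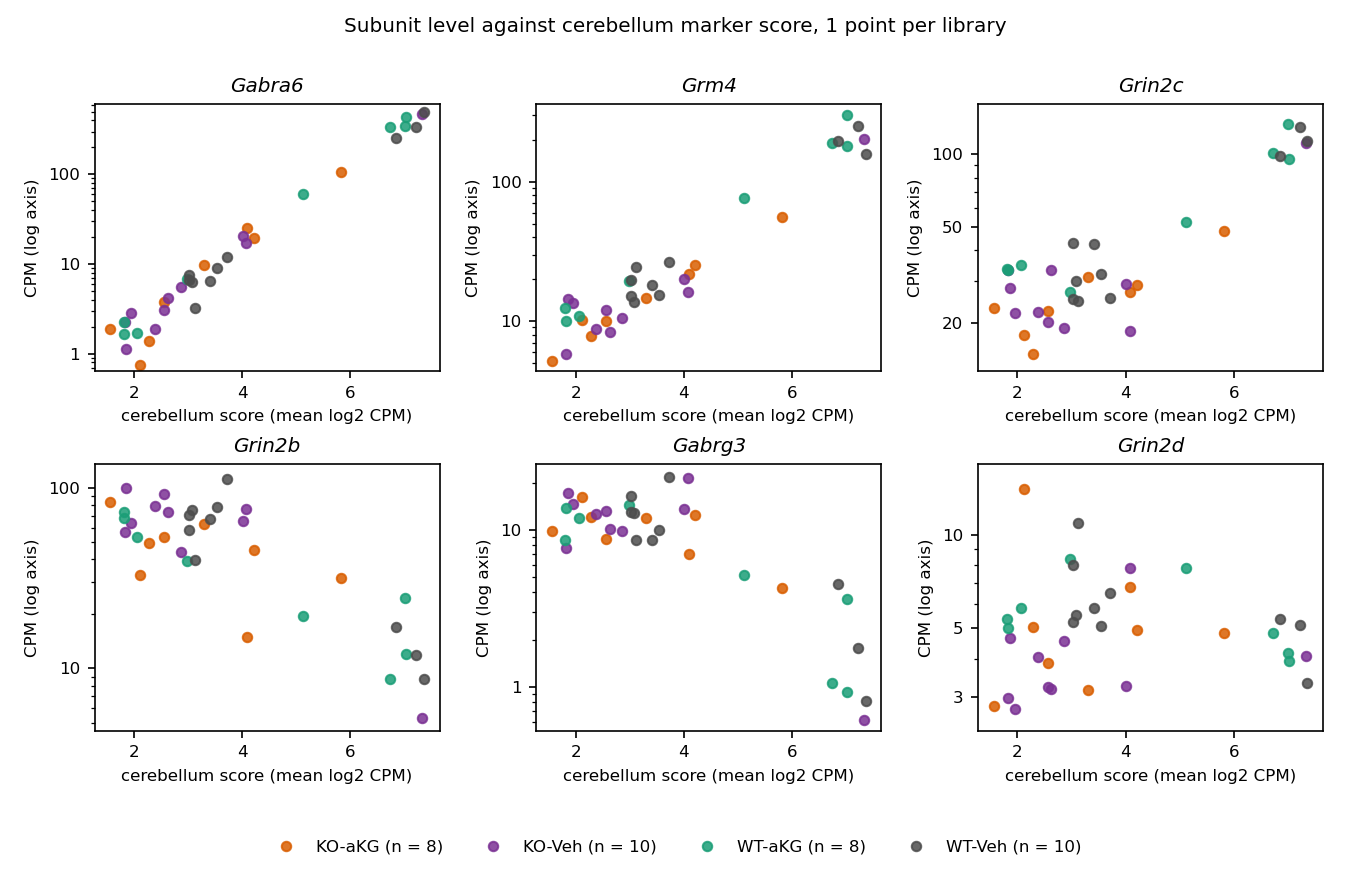
Level of 6 subunits (CPM, log axis, 1 point per library, coloured by group) against the cerebellum score. Gabra6, Grm4 and Grin2c are highest in the libraries with high scores, Grin2b and Gabrg3 have their lowest values there, and Grin2d shows no such separation (3.33 to 7.80 CPM in cerebellum-rich libraries and 2.76 to 14.1 CPM in the others).

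GABA-A genes lie in clusters, and neighbours shared a direction. On chromosome 11 (GRCm38), Gabra6 (from 42306437 to 42321072) and Gabrb2 (from 42419757 to 42629028) were both higher in the cerebellum-rich libraries, at 6.33 and 1.21 in log2 median. On chromosome 5 (from 70751047 to 72149037, 1.40 Mb), Gabra4 at -0.95, Gabrb1 at -0.70, Gabra2 at -0.46 and Gabrg1 at -0.25 were all lower. On chromosome 7, Gabrg3 (from 56716465 to 57387188) at -2.80 and Gabra5 (from 57407672 to 57510059) at -2.49 were lower. Gabrd on chromosome 4 differed by 2.23 and Gabra3 on the X chromosome by -1.27. Exons of Gabra4 and Gabrb1 overlap on opposite strands, and the sources used here do not say whether the counting used strand, so their counts may be shared in part.

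In variance terms, the 4 labelled groups accounted for a median of 1.15% of the variance of log2 CPM of the subunits (adjusted R2), and 5 marker scores (cerebellum, cortex, striatum, thalamus and hypothalamus) for 68.0%. Over all genes tested the medians were 4.53% and 31.2%. The scores explained more than the groups for 36 of 37 subunits, and for 12902 of all 16255 genes tested. The share of the scores was 98.6% for Gabra6, 95.3% for Gria4, 93.5% for Grm4 and 90.7% for Grin2b. The exception was Grm8, a presynaptic metabotropic receptor, at 1.37% for scores and 1.95% for groups. The SD of log2 CPM ran from 0.30 (Gabra2) to 2.75 (Gabra6), with a median of 0.58 against 0.35 over all genes.

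The comparison of KO with WT asked whether loss of Gpt2 changed receptor subunit expression, under vehicle, under dm-αKG and averaged over both. A gene was called where the adjusted p of edgeR's quasi-likelihood test (Benjamini-Hochberg over all genes) was under 0.05. With vehicle 0 subunits were called, against 4.31% of all genes (2.6% higher and 1.72% lower in KO), and 3 had an unadjusted p under 0.05 (8.11%, against 21.0% of all genes). With dm-αKG 0 were called, against 1.87% (1.12% higher and 0.751% lower), and 4 had an unadjusted p under 0.05 (10.8%, against 15.7%). DESeq2 and limma also called 0 in both. Averaged over treatments, Grin2c and Grm4 fell in KO and 0 subunits rose; 11.9% of all genes were called, 5.7% higher and 6.17% lower, so 2 of 37 is near the background. The median log2 fold change of the 37 subunits was -0.13, against -0.02 over all genes.

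Grin2c had 14.9, 24.9 and 48.1 CPM (lowest, median, highest) in KO-aKG, 18.6, 25 and 112 CPM in KO-Veh, 26.8, 43.7 and 134 CPM in WT-aKG, and 24.6, 37.3 and 130 CPM in WT-Veh. The groups overlapped. Its averaged log2 fold change was -1.01 (SE 0.28, 95% interval -1.58 to -0.44, edgeR adjusted p = 0.0164). Grm4 had 5.16, 12.4 and 55.7 CPM in KO-aKG, 5.83, 12.8 and 202 CPM in KO-Veh, 10.0, 47.9 and 299 CPM in WT-aKG, and 13.7, 22.0 and 253 CPM in WT-Veh, again with overlap, and a log2 fold change of -1.83 (SE 0.56, interval -2.97 to -0.69, edgeR adjusted p = 0.0298). Gabra6 had medians of 6.83 CPM in KO-aKG, 3.64 CPM in KO-Veh, 33.5 CPM in WT-aKG and 8.28 CPM in WT-Veh, and its log2 fold change of -1.96 (SE 0.91, edgeR adjusted p = 0.151) was not called. The sign of Gabra6 turned in the other fits, to 0.75 without the cerebellum-rich libraries (SE 0.53, edgeR adjusted p = 0.396) and 0.10 with region scores (SE 0.12, edgeR adjusted p = 0.642). Both called genes are among the 5 that separated the cerebellum-rich libraries, of which 2 were KO and 7 WT. Without these 9 libraries Grm4 differed by -0.28 (SE 0.22, edgeR adjusted p = 0.444) and was not called, while Grin2c had 14.9, 22.8 and 33.3 CPM in 16 KO libraries and 24.6, 31.9 and 43.0 CPM in 11 WT libraries, a log2 fold change of -0.39 (SE 0.12, edgeR adjusted p = 0.0429). With the 5 region scores as covariates Grin2c was at -0.29 (edgeR adjusted p = 0.0708).

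A single library moved these counts. Without KO-Veh-7, the only cerebellum-rich KO-Veh library, 7 of 37 subunits were called lower with vehicle (Gabra6, Gria4, Grik1, Grin2c and Grm4 among them), against 5.69% of all genes lower in that fit (10.3% in either direction), and 10 were called lower averaged over treatments, against 10.5% (18.2% in either direction). Without KO-Veh-9, Grin2d alone was called with vehicle, against 5.35% of all genes. Without WT-Veh-6, WT-Veh-9 or WT-aKG-6, each of them cerebellum-rich, Grin2c alone remained called in the averaged comparison, against 8.89 to 10.0% of all genes. Without WT-aKG-1 or WT-aKG-4 3 were called, and without KO-aKG-5 Grin2d joined Grin2c and Grm4; 11.2 to 12.7% of all genes were called in these fits.

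With the 5 region scores in the fit, another set of subunits stood out. Averaged over treatments, 8 fell in KO and 1 rose, and 16.3% of all genes were called, 8.68% lower and 7.6% higher. Those that fell were Grin2d, Grin3a, Gabra3, Gabra2, Grm2, Grm3, Grm4 and Grm8. With vehicle 4 fell (Gabra3, Grin2d, Grin3a and Grm2), against 8.26% of all genes called, 4.18% lower and 4.07% higher. With dm-αKG 2 fell (Grin2d and Grm4), against 2.44% called, 1.06% lower and 1.38% higher. Without the cerebellum-rich libraries and without scores, 0 subunits were called with vehicle (3.77% of all genes, 2.23% higher and 1.54% lower; 7 subunits had an unadjusted p under 0.05, 18.9% against 19.1% of all genes). There Gabra3 alone fell with dm-αKG (3.63%, 1.31% higher and 2.31% lower), at -0.62 (SE 0.16, edgeR adjusted p = 0.0304). Averaged over treatments 3 fell and 1 rose in these libraries (10.9%, 5.28% higher and 5.67% lower). With scores the median log2 fold change of the subunits in the averaged comparison was -0.12, against -0.02 over all genes.

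**Figure D3:**
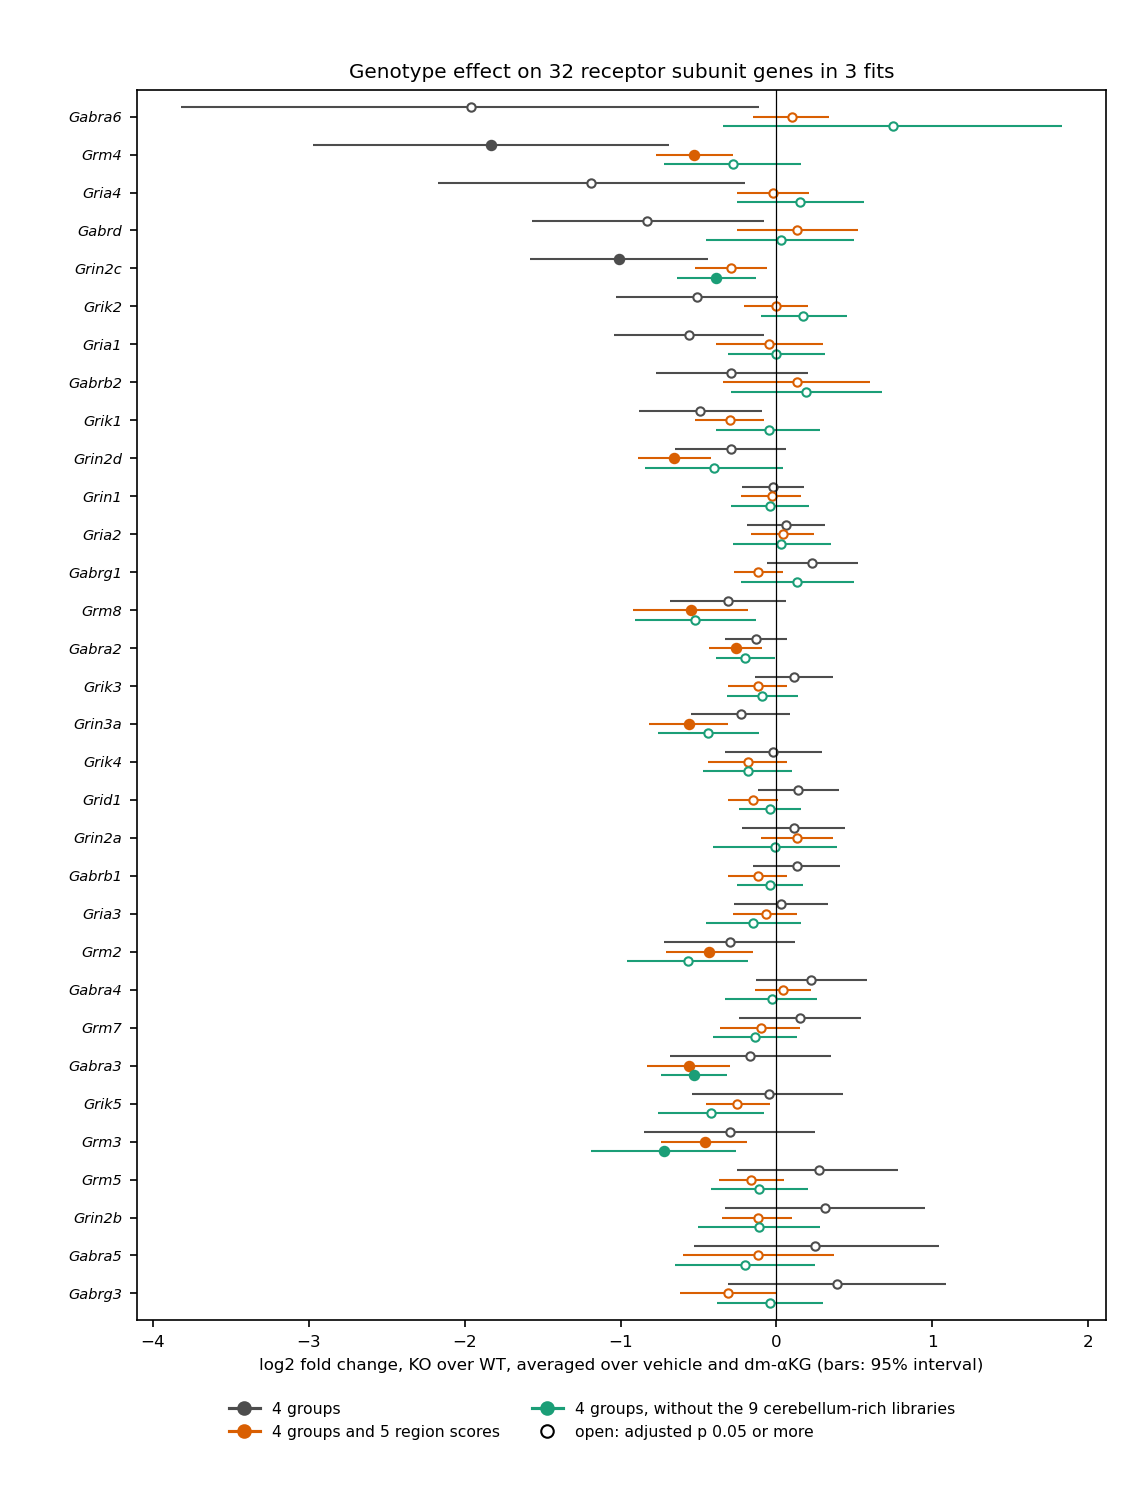
Log2 fold change of KO over WT, averaged over treatments, for 32 of the subunits (rows) in 3 fits: 4 groups, 4 groups with 5 region scores, and 4 groups without the 9 cerebellum-rich libraries. Bars are 95% intervals and filled points have an adjusted p under 0.05. Grin2c and Grm4 are filled in the first fit, 8 subunits in the second, all lower in KO, and Gabra3, Grin2c and Grm3 in the third.

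Grin2d encodes the GluN2D subunit, found in young brain and in interneurons, and Grin3a the GluN3A subunit of juvenile NMDA receptors. Grin2d had 2.81, 4.89 and 14.1 CPM (lowest, median, highest) in KO-aKG, 2.76, 3.65 and 7.82 CPM in KO-Veh, 3.93, 5.18 and 8.35 CPM in WT-aKG, and 3.33, 5.44 and 11.0 CPM in WT-Veh. The groups overlapped, and the highest KO libraries, KO-aKG-5 and KO-Veh-9, had hypothalamus scores of 4.05 and 4.24, the highest of all libraries. With region scores its averaged log2 fold change was -0.66 (SE 0.12, interval -0.89 to -0.42, edgeR adjusted p = 0.000185); without scores it was -0.29 (SE 0.17, edgeR adjusted p = 0.277), and without the cerebellum-rich libraries -0.40 (edgeR adjusted p = 0.247). An annotated gene on the opposite strand, Gm45441, overlaps its exons and averaged 3.93 CPM, so Grin2d counts are uncertain. Grin3a had 11.3, 13.3 and 24.9 CPM in KO-aKG, 8.19, 12.6 and 22.9 CPM in KO-Veh, 8.80, 16.6 and 19.8 CPM in WT-aKG, and 7.04, 16.5 and 29.9 CPM in WT-Veh, with overlap. Its fold change was -0.56 with scores (SE 0.13, edgeR adjusted p = 0.00222), -0.23 without them (edgeR adjusted p = 0.348) and -0.44 without the cerebellum-rich libraries (edgeR adjusted p = 0.0712).

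Gabra3, the α3 subunit of GABA-A receptors, had 7.34, 9.24 and 13.3 CPM in KO-aKG, 1.33, 11.9 and 14.4 CPM in KO-Veh, 2.99, 11.8 and 20.3 CPM in WT-aKG, and 2.36, 14.9 and 21.0 CPM in WT-Veh. The 7 lowest values were all from cerebellum-rich libraries, and the groups overlapped. Among the other libraries it had 7.34, 11.6 and 14.4 CPM in 16 KO and 12.6, 15.5 and 21.0 CPM in 11 WT libraries, which overlapped between 12.6 and 14.4 CPM. There the averaged log2 fold change was -0.53 (SE 0.10, interval -0.74 to -0.32, edgeR adjusted p = 0.00128). With region scores over all libraries it was -0.56 (SE 0.13, edgeR adjusted p = 0.00337), and without either -0.17 (SE 0.25, edgeR adjusted p = 0.708).

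Promoters of Gabra3 and Grin2d are shown because both fell in the fit with region scores under each setting of region scores tried (GRCm38.p6, minus strand, chrX:72656870-72657169, the first of 2 starts listed, and chr7:45866632-45866931). Neither held the half-site of nuclear factor I, so no letters are in capitals, and GC content was 43.0% and 56.0%.
Gabra3: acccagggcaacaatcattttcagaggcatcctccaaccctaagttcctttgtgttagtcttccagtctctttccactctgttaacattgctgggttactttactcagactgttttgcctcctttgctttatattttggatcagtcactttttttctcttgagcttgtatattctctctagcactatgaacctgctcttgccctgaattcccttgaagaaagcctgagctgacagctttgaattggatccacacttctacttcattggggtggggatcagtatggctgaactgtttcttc
Grin2d: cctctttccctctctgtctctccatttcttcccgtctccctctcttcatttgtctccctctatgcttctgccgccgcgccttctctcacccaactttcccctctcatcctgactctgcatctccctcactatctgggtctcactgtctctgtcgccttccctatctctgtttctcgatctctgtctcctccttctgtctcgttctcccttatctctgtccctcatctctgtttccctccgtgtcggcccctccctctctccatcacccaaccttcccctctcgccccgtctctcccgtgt

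Gabra2, the α2 subunit on the chromosome 5 cluster, had 64.9, 91.5 and 122 CPM in KO-aKG, 70.7, 99.9 and 131 CPM in KO-Veh, 77.5, 104 and 123 CPM in WT-aKG, and 60.7, 111 and 135 CPM in WT-Veh, with overlap. It had an averaged log2 fold change of -0.26 with scores (SE 0.09, edgeR adjusted p = 0.0337), -0.13 without (edgeR adjusted p = 0.409) and -0.20 without the cerebellum-rich libraries (edgeR adjusted p = 0.170).

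Of the metabotropic receptors, Grm2 and Grm3 belong to the same group, and Grm4 and Grm8 are presynaptic receptors. Grm2 had 6.42, 12.7 and 20.8 CPM in KO-aKG, 7.70, 18.1 and 34.3 CPM in KO-Veh, 6.07, 13.1 and 27.9 CPM in WT-aKG, and 8.27, 22.8 and 35.2 CPM in WT-Veh. Grm3, which astrocytes also make, had 6.15, 12.9 and 27.6 CPM in KO-aKG, 8.58, 26.5 and 37.3 CPM in KO-Veh, 8.70, 19.0 and 49.6 CPM in WT-aKG, and 6.33, 25.8 and 44.6 CPM in WT-Veh. Both overlapped across groups. With region scores the averaged log2 fold changes were -0.43 for Grm2 (SE 0.14, edgeR adjusted p = 0.028), -0.46 for Grm3 (SE 0.14, 0.0179), -0.53 for Grm4 (SE 0.12, 0.00304) and -0.55 for Grm8 (SE 0.18, 0.0338). Without the cerebellum-rich libraries and without scores, Grm3 was called at -0.72 (SE 0.23, edgeR adjusted p = 0.0388), and Grm2 at -0.57 (0.0505) and Grm8 at -0.52 (0.0782) were not. Grm4 with dm-αKG depended on how the regions were treated. Its log2 fold change was -0.95 with scores (SE 0.18, edgeR adjusted p = 0.00243), -2.41 without them (0.144) and 0.07 without the cerebellum-rich libraries (0.930). With vehicle Grm4 was at -0.11 with scores (SE 0.15, edgeR adjusted p = 0.73), -1.24 without them (0.327) and -0.63 without the cerebellum-rich libraries (0.191). It was called in none of these vehicle fits, so the averaged call with scores rests mostly on the dm-αKG groups.

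**Figure D4:**
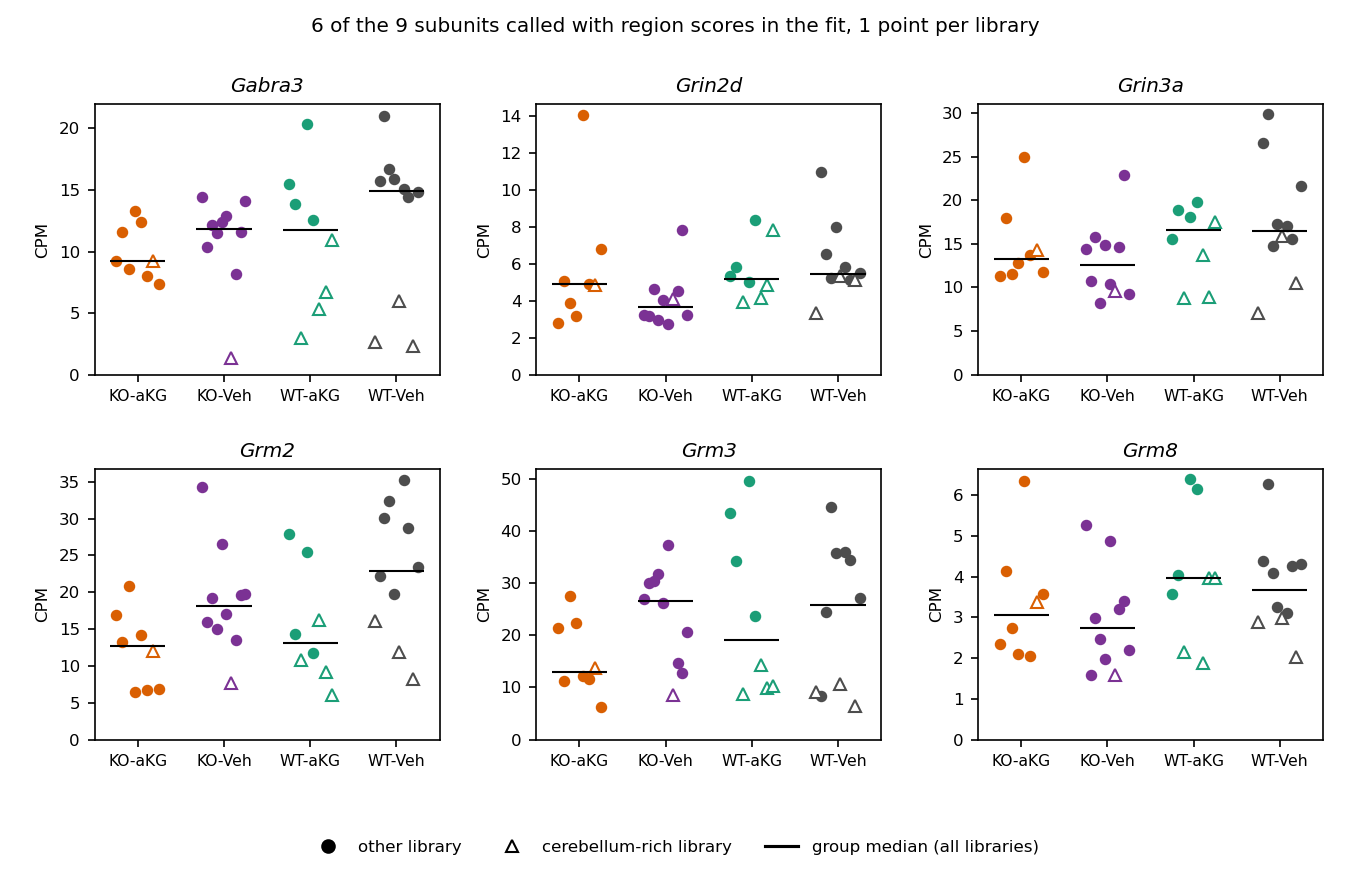
Level (CPM, 1 point per library) of 6 subunits by group; triangles are cerebellum-rich libraries and lines are group medians. Among circles, Gabra3 lies between 7.34 and 14.4 CPM in KO and between 12.6 and 21.0 CPM in WT, and Grin3a between 8.19 and 24.9 CPM in KO and between 14.8 and 29.9 CPM in WT.

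Grin2d, Grin3a, Gabra3 and Grm2 were called lower in the averaged comparison in 5 of 5 fits that held region scores (5 or 8 scores, with glial scores, with a replicate block, or without the cerebellum-rich libraries). Grm3, Grm4 and Grm8 were called in 4 of 5 and Gabra2 in 2 of 5. Leaving out each of the 36 libraries in turn from the fit with 5 scores, Grin2d, Grin3a, Gabra3 and Grm4 were called 36 times of 36. Grm3 lost its call without WT-Veh-5 (log2 fold change -0.31, edgeR adjusted p = 0.115), Grm2 without WT-aKG-1 or KO-aKG-8 (highest edgeR adjusted p = 0.0532), Gabra2 without any of 8 libraries, and Grm8 without any of 10. Astrocyte markers, 7 of 7 found, had summed medians of 1330 CPM in KO-aKG, 1160 CPM in KO-Veh, 1580 CPM in WT-aKG and 1430 CPM in WT-Veh. Cortex markers, 8 of 8 found, had 138 CPM in KO-aKG, 284 CPM in KO-Veh, 131 CPM in WT-aKG and 170 CPM in WT-Veh. With astrocyte and oligodendrocyte scores in the fit, 5 subunits were called (Gabra3, Grin2d, Grin3a, Grm2 and Grm8). The share of all genes called in that fit is not given here, so this count has no background beside it.

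The comparison of dm-αKG with vehicle asked whether the ester changed subunit expression within a genotype. In KO 0 subunits were called, against 0% of all genes, and 7 had an unadjusted p under 0.05 in edgeR's test (18.9%, against 12.1% of all genes). In WT 0 were called, against 0%, and 0 had an unadjusted p under 0.05, against 8.55% of all genes. The interaction of genotype and treatment called 0 subunits, against 0% of all genes, and 0 had an unadjusted p under 0.05, against 4.48%. DESeq2 and limma called 0 subunits in each. The median log2 fold change was -0.27 in KO and -0.16 in WT, against -0.01 over all genes in both. These intervals were wide: the 95% interval lay within 1 log2 unit of 0 for 22 subunits in KO and 26 in WT. With the 5 region scores in the fit, the interaction again called 0 subunits, against 0% of all genes. There 5 had an unadjusted p under 0.05 (13.5%, against 4.26% of all genes), Grm4 at -0.84 and Grin2b at 0.57 among them. Without the cerebellum-rich libraries the interaction called 0, and 4 had an unadjusted p under 0.05 (10.8%, against 12.4% of all genes).

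NMDA subunits were among the 7 with an unadjusted p under 0.05 in KO. Grin1 had 43.1, 52.7 and 58.9 CPM in KO-aKG, against 43.6, 68.7 and 105 CPM in KO-Veh, with overlap, a log2 fold change of -0.42 (SE 0.14, edgeR adjusted p = 0.251). Grin2a, the subunit that rises as NMDA receptors mature, had 11.6, 23.3 and 46.2 CPM in KO-aKG, against 19.1, 35.3 and 53.5 CPM in KO-Veh, a log2 fold change of -0.61 (SE 0.23, edgeR adjusted p = 0.293). Neither was called. With region scores Grin1 was at -0.27 (SE 0.13, edgeR adjusted p = 0.621) and Grin2a at -0.25 (SE 0.15, edgeR adjusted p = 0.673), and without the cerebellum-rich libraries they were at -0.45 (SE 0.16, 0.112) and -0.68 (SE 0.25, 0.127). Regional and glial markers differed in median between the same groups: cortex markers had a summed median of 138 CPM in KO-aKG and 284 CPM in KO-Veh, hindbrain markers 16.3 and 2.37 CPM, and oligodendrocyte markers 10500 and 6210 CPM. Fits with 8 region scores, hindbrain among them, and with glial scores added also called 0 subunits in this comparison. Values of Grin1 and Grin2a in those fits are not given here. Beyond fits with scores, the part of these markers was not tested. With region scores 3 subunits had an unadjusted p under 0.05 in KO (7.84% of all genes) and 7 in WT (16.4% of all genes), where 0 were called against 0.88% of all genes (0.443% higher and 0.437% lower).

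Ratios of 2 subunits within a library remove its depth. The share of Grin2a relative to Grin2b rises as NMDA receptors mature, Gria1 over Gria2 bears on calcium entry, and Grin2c over Grin2b contrasts cerebellum with forebrain. Of 16 ratio tests adjusted together, 12 (3 ratios in 4 comparisons) are described, none was called, and the smallest adjusted p was 0.761. The log2 ratio of Grin2a over Grin2b was -0.94 ± 0.40 in KO-aKG and -0.30 ± 0.94 in WT-aKG (SD, n = 8 each), a difference of -0.64 (2-sided exact permutation p = 0.0988, adjusted p = 0.761), and of 0.10 without the cerebellum-rich libraries. It was -0.66 ± 0.92 in KO-Veh and -0.52 ± 1.01 in WT-Veh (SD, n = 10 each), a difference of -0.14 (2-sided permutation p = 0.760, adjusted p = 0.992), and of 0.14 without the cerebellum-rich libraries. The log2 ratio of Gria1 over Gria2 was -1.34 ± 0.85 in KO-Veh and -0.80 ± 0.79 in WT-Veh, a difference of -0.54, and of -0.37 without the cerebellum-rich libraries. The log2 ratio of Grin2c over Grin2b was -0.74 ± 0.99 in KO-aKG and 0.88 ± 1.93 in WT-aKG, a difference of -1.62 (2-sided exact permutation p = 0.0556, adjusted p = 0.761), and of -0.10 without the cerebellum-rich libraries. All of these groups overlapped.

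Genes that act with these receptors were followed in 6 lists of 55 genes. In the averaged genotype comparison without region scores, in which 11.9% of all genes were called, 1 of 14 auxiliary subunits of AMPA and kainate receptors was called lower in KO: Cacng2 (stargazin), which carries AMPA receptors to the synapse, at -0.44 (SE 0.11, edgeR adjusted p = 0.00809). Its call was lost with region scores, at -0.20 (SE 0.09, edgeR adjusted p = 0.111), and without the cerebellum-rich libraries, at -0.27 (SE 0.10, edgeR adjusted p = 0.0820). It had 47, 56.9 and 74.3 CPM in KO-aKG, 42.5, 72.5 and 110 CPM in KO-Veh, 52.3, 87.5 and 122 CPM in WT-aKG and 66.5, 83.9 and 127 CPM in WT-Veh, with overlap. Of 10 inhibitory synapse anchors, Nlgn2, an adhesion protein of inhibitory synapses, was called lower at -0.28 (SE 0.08, edgeR adjusted p = 0.024). Of 5 GABA-B receptor genes, Kctd12, an auxiliary subunit, was called lower at -0.61 (SE 0.20, edgeR adjusted p = 0.0375), and not called with region scores (-0.20, adjusted p = 0.162) or without the cerebellum-rich libraries (-0.13, adjusted p = 0.443). Kctd8 of the same list was at -0.42 (SE 0.29, edgeR adjusted p = 0.349) over all libraries, and without the cerebellum-rich libraries it was called higher, at 0.62 averaged (SE 0.17, 0.0180) and 1.05 with dm-αKG (SE 0.27, 0.0320). Leaving out single libraries, Nlgn2 lost its call without WT-aKG-6 (-0.24, edgeR adjusted p = 0.0519) and Kctd12 without any of 15 libraries (highest edgeR adjusted p = 0.0731, without WT-aKG-6). None of 15 excitatory scaffolds or 6 cerebellins and delta receptor partners was called over all libraries without scores.

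With region scores 16.3% of all genes were called (8.68% lower and 7.6% higher). Nlgn2 was again lower in the averaged comparison with scores, at -0.36 (SE 0.08, edgeR adjusted p = 0.00371), and without the cerebellum-rich libraries at -0.31 (SE 0.10, 0.0377). Among the 14 auxiliary subunits, 2 were lower with scores, Shisa9 at -0.43 (SE 0.09, edgeR adjusted p = 0.00142) and Cacng4 at -0.44 (SE 0.10, 0.00214), and Cacng3 was higher at 0.32 (SE 0.10, 0.0225). Without the cerebellum-rich libraries these were at -0.23 for Shisa9 (edgeR adjusted p = 0.292), -0.28 for Cacng4 (0.108) and 0.15 for Cacng3 (0.689), and were not called. Over all libraries without scores they were at -0.01 (edgeR adjusted p = 0.973), -0.19 (0.319) and 0.62 (0.216), also not called. Neto1 of the same list was called lower with scores under vehicle, at -0.60 (SE 0.14, edgeR adjusted p = 0.00574). There 8.26% of all genes were called. Averaged with scores, Neto1 was at -0.30 (edgeR adjusted p = 0.0544) and was not called. With dm-αKG and scores it was at -0.01 (edgeR adjusted p = 0.989). Under vehicle its sign turned to 0.18 over all libraries without scores (edgeR adjusted p = 0.867). It was at -0.13 under vehicle without the cerebellum-rich libraries (edgeR adjusted p = 0.805), and was called in neither. Homer2, a scaffold that binds metabotropic receptors, was lower in the averaged comparison with scores at -0.51 (SE 0.15, edgeR adjusted p = 0.0158) and without the cerebellum-rich libraries at -0.76 (SE 0.21, 0.0203). Over all libraries without scores it was at -0.33 (edgeR adjusted p = 0.473) and was not called. Median log2 fold changes of the lists with scores lay between -0.23 and 0.02.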

How the data were processed

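Per the labels' protocols, cDNA was primed with barcoded oligo-dT that also held a molecular identifier (UMI), then tagmented and amplified. The submitters' processing notes name featureCounts 2.0.6, HISAT2 2.2.1, SAMtools 1.6, FastQC 0.12.1, Trim Galore 0.6.10 and deepTools, with the builds mm10 and mm39. The sources used here do not state which build was counted, whether strand was used or UMIs collapsed. The authors deposited estimated counts per gene as whole numbers, and a CPM table of 21637 genes. Rescaled to counts, 85.6 to 88.6% of the CPM values of a library lay within 0.02 of a whole number. For the subunits the 2 tables differed by at most 0.519 counts. Libraries held 5.77 to 13.3 M counts.

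Counts were fitted with edgeR 4.0.16 (R 4.3.3, filterByExpr, TMM, robust quasi-likelihood, 4 groups, 36 libraries). The fit without region scores was checked on simulated counts. These held no differences in region content between libraries, so the check covers neither such differences nor the fits with scores. CPM values printed are TMM-scaled. Standard errors are the fold change divided by the square root of F. Alternatives used DESeq2 1.42.0, limma 3.58.1 on log2(CPM + 1), region scores as covariates, other filters, a replicate block and fewer libraries, and a covariate of Xist and Ddx3y. Ratios, log2((count + 1)/(count + 1)), were compared by 2-sided permutation tests, exact with a group under 10 and with 100000 resamples otherwise. Subunits named are those called in any comparison without or with region scores, the 10 with the highest mean CPM and 11 chosen for a textbook regional pattern (23 in all, 19 of them reported here); others were named after their values were seen. Some subunits are counted but not reported here by name. The members, lists and tests were chosen with earlier results of these data known. No 2 libraries of a group were identical (146 pairs). Gene positions are from the GENCODE annotation of GRCm38; the files' build may differ.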

Additional observations from a re-analysis of the deposited data

Results flagged for a closer look

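Of 76 sets of group values checked for the subunits reported by name, 17 held a library far from the others of its group. The cut-off used flags about 1 in 20 sets of independent, normally distributed values. These sets share their libraries and hold CPM without log transformation, so that rate need not hold here and 17 cannot be read against it. In KO-Veh, 8 of the 17 came from KO-Veh-7, the only cerebellum-rich library of the group. It was highest for Gabra6 (474 CPM, next 20.7 CPM), Grm4 (202 CPM, next 20 CPM), Gria1 (293 CPM, next 131 CPM), Gabrd (136 CPM, next 41.6 CPM) and Grin2c (112 CPM, next 33.3 CPM). It was lowest for Gabra3 (1.33 CPM, next 8.19 CPM), Grm5 (19.6 CPM, next 80.3 CPM) and Grik5 (25.7 CPM, next 74.9 CPM).

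In KO-aKG, the cerebellum-rich KO-aKG-7 was highest for Gabra6 (105 CPM, next 25.5 CPM) and Grm4 (55.7 CPM, next 25.4 CPM). KO-aKG-1 was highest for Gabra5 (66.8 CPM, next 24.5 CPM) and Grin2a (46.2 CPM, next 26.1 CPM), and KO-aKG-5 for Grin2d (14.1 CPM, next 6.78 CPM). KO-Veh-9 was highest for Grin2d (7.82 CPM, next 4.66 CPM) and Grin3a (22.9 CPM, next 15.8 CPM). In WT, WT-Veh-3 was highest for Grin1 (100 CPM, next 69.7 CPM) and WT-aKG-8 was lowest for Gria2 (140 CPM, next 215 CPM).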

How the results depend on the processing

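The calls of subunits depended on which region scores were fitted and which libraries were kept. Subunits called with vehicle numbered 0 without region scores, 4 with 5 scores, 5 with 8 scores, 5 with 5 scores and no cerebellum-rich libraries, 4 with 8 region and 2 glial scores, and 6 with 5 scores and a replicate block. With dm-αKG the counts were 0, 2, 2, 1, 0 and 1 in the same order, and 1 without the cerebellum-rich libraries alone. Averaged over treatments they were 2, 9, 8, 8, 5 and 8, and 4 without the cerebellum-rich libraries. DESeq2 called 4, no filter on low counts 1 and limma on log2(CPM + 1) 0. Of all genes, 4.31% were called with vehicle without scores and 8.26% with 5 scores. With dm-αKG these shares were 1.87% and 2.44%, and averaged 11.9% and 16.3%. Without the cerebellum-rich libraries alone they were 3.63% with dm-αKG and 10.9% averaged. Shares in the other fits are not given here, so those counts have no background beside them. The replicate block alone left the counts at 0, 0 and 2. Same-numbered libraries of different groups correlated at -0.68 to 0.82 (median 0.12, 50 pairs), against a median of -0.02 for other pairs. These correlations also carry the region content of the libraries, so they cannot decide whether the numbers pair them. The sources used here do not state a pairing. Treatment and interaction calls were 0 under every alternative run. The settings with 8 scores, with glial scores, with scores and fewer libraries, and with scores and a block were chosen after seeing the data, as were the alternatives for Gabra6, Grin1, Grin2a and the partner genes.

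Leaving out each library in turn gave 0 to 7 called with vehicle and 1 to 10 averaged. With 5 scores it gave 3 to 7 with vehicle (7 without WT-Veh-5) and 1 to 2 with dm-αKG. Shares of all genes called in these fits with scores are not given here. Signs turned for Grm4 with dm-αKG (0.07 without the cerebellum-rich libraries), for Grin2d with dm-αKG (0.05 with limma; -0.32 to 0.10 over single libraries left out) and for Gabra3 averaged (0.05 with limma). Gabra6 averaged, at -1.96 with 4 groups, turned to 0.75 without the cerebellum-rich libraries, 0.10 with 5 scores (with or without those libraries), 0.08 with 8 scores, 0.03 with glial scores and 0.03 with scores and a block. In the same order Kctd8 turned to 0.62, 0.27 and 0.54, 0.32, 0.11 and 0.50. Shisa9 averaged was at 0.08 with limma and -0.07 to 0.06 over single libraries left out, and Grin2a for dm-αKG in KO at 0.08 with 5 scores and no cerebellum-rich libraries. Without the cerebellum-rich libraries, Grin2a over Grin2b was at 0.14 for KO against WT with vehicle, 0.10 with dm-αKG and -0.03 for dm-αKG in WT, and Gria1 over Gria2 at 0.26 with dm-αKG and -0.38 for dm-αKG in WT. With single libraries left out, ratios that changed sign ranged, for Gria1 over Gria2, from -0.03 to 0.33 (dm-αKG in KO) and -0.14 to 0.26 (dm-αKG in WT); for Grin2a over Grin2b, from -0.43 to 0.07 (vehicle) and -0.36 to 0.01 (dm-αKG in KO); and for Grin2c over Grin2b, from -0.04 to 0.78 (dm-αKG in KO). The cause was not tested. Members of the rule numbered 39 at a limit of 0.5 CPM and 36 at 2 CPM. Counts of Gabrb2, Grm8 and Grin2d were low (medians of 16, 36 and 53), which limits what can be seen for them.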

Other observations

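Of the GABA-A genes that the symbol rule leaves out, Gabrr1, Gabrr2, Gabrr3 and Gabrp were at 0.68 CPM or less in every library. Gabrq, the θ subunit, had (in CPM of total counts) a lowest, median and highest level of 0.187, 2.66 and 13 CPM in KO-aKG, 0.201, 0.606 and 10.2 CPM in KO-Veh, 0.0952, 0.535 and 2.93 CPM in WT-aKG and 0.085, 0.524 and 4.18 CPM in WT-Veh. In the 6 libraries with a hypothalamus score over 1 log2 unit higher than the average library (3 KO-aKG, 2 KO-Veh, 0 WT-aKG and 1 WT-Veh) it had 2.35, 4.77 and 13 CPM, against 0.085, 0.606 and 4.01 CPM in the other 30. Gabre, the ε subunit, from the same cluster on the X chromosome, had 0.174, 0.711 and 2.50 CPM there, against 0, 0.0399 and 0.679 CPM in the others. Grm6, a receptor of retinal bipolar cells, had a count in 7 of 36 libraries, never more than 1.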
